A study of Mus musculus with 4 samples.

Results

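The genes of fatty acid oxidation were examined in sciatic nerve of LKB1-SCKO and control mice. The set holds 38 genes, chosen by name from the pathway: 19 of mitochondrial oxidation, 13 of peroxisomes and 6 acyl-CoA synthetases and thioesterases. A probe with the gene's platform symbol, current or older, was present for 37 of them, and 35 were measured among 10858 genes tested. Acsl1 was not analysed here, and neither Cpt1a (2 probes) nor Phyh (1 probe) was above background in both pools of a genotype.

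LKB1-SCKO mice lack the kinase LKB1, encoded by Stk11, in Schwann cells, the glia that wrap the axons of peripheral nerves. Control mice carried the floxed gene but no Cre recombinase. Both genotypes were of a mixed FVB/C57BL/6 background and were taken at postnatal day 60, an age before the axons of the mutants degenerate. There were 2 pools of LKB1-SCKO and 2 pools of control nerves, each of 3 nerves from different mice (6 mice per genotype), and each pool was hybridised to 1 Illumina beadchip array. The Cre driver is not given in the sources used here. The deletion was aimed at Schwann cells, and Stk11 was not measured by cell type in the whole nerve. In whole nerve, fewer cells of a type and less RNA per cell cannot be told apart.

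For oxidation in mitochondria, long-chain fatty acids are first activated to acyl-CoA and then carried across the inner membrane as carnitine esters. Inside, they are shortened by repeated cycles of dehydrogenation, hydration, oxidation and thiolysis. Electrons from the dehydrogenation step pass to the respiratory chain through the electron-transferring flavoprotein. Peroxisomes shorten very-long-chain and branched fatty acids and begin the synthesis of ether lipids, among them the plasmalogens of myelin. LKB1 activates the kinase AMPK, which phosphorylates acetyl-CoA carboxylase and so relieves the block that malonyl-CoA puts on carnitine palmitoyltransferase. That control acts on proteins, and the arrays measured transcripts.

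Levels are given as log2 normalised intensity, and differences as log2 fold change, LKB1-SCKO over control, with the standard error (SE) and the Benjamini-Hochberg adjusted p of limma over all 10858 genes (two-sided, threshold 0.05). A gene's value is that of its brightest kept probe unless another probe is named. Between 43.3% and 45.6% of the probes were detected on each array. Stk11, the targeted gene, had 8.93 and 9.01 in LKB1-SCKO pools, against 9.70 and 9.83 in control pools (log2 fold change -0.80, SE 0.133, adjusted p = 0.0448). The position of its probe relative to the deleted exons is not known. Its call ended without any 1 pool (adjusted p 0.0791 to 0.217), with no detection filter (0.0582) and with the authors' processed values (0.0839). Of 11 listed Schwann cell markers 8 were measured, all detected on all 4 arrays. Drp2 fell (log2 fold change -0.91, adjusted p = 0.0457) and 7 did not pass, with Pmp22 at -0.42 (adjusted p = 0.148), Egr2 at -0.28, Mbp at -0.05, Sox10 at 0.11 and Mag at 0.26. Their summed intensity was 126400 and 134590 in LKB1-SCKO pools, against 149200 and 148140 in control pools. The pools were not alike in the levels of muscle and adipocyte genes. All 13 measured of 14 listed skeletal muscle genes were lowest in LKB1-SCKO 1, and their summed intensity was 30524 and 111590 in LKB1-SCKO pools, against 95476 and 83644 in control pools. Of 12 listed adipocyte genes 9 were measured, with a sum of 32395 and 22932 in LKB1-SCKO pools, against 27821 and 12839 in control pools. The sum for 5 measured of 6 listed brown adipocyte genes was 22061 and 17723 in LKB1-SCKO pools, against 21987 and 14691 in control pools. Values with 1 pool left out are given below for the class medians and for members that then changed sign or lost the call. They are given at the end for some members that kept their sign.

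The acyl-CoA enzymes Acsl5 and Acot7 were the members past the threshold, and both rose. Of 35 measured members 2 passed, with 0 falling, beside 3.79% of all genes tested (2.46% higher and 1.34% lower). At an unadjusted p under 0.05 there were 5 members, beside 22.4% of all genes (4 members higher beside 12.0%, and 1 lower beside 10.4%), and in 15 members the pools of the genotypes did not overlap, beside 55.1% of all genes. The median log2 fold change was 0.08 over the 35 members and 0.01 over all genes tested. By class the median was 0.10 over 18 mitochondrial genes, -0.14 over 12 peroxisomal genes and 0.42 over 5 acyl-CoA enzymes. These counts and medians describe the list, and no test of the list was made.

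**Figure D1:**
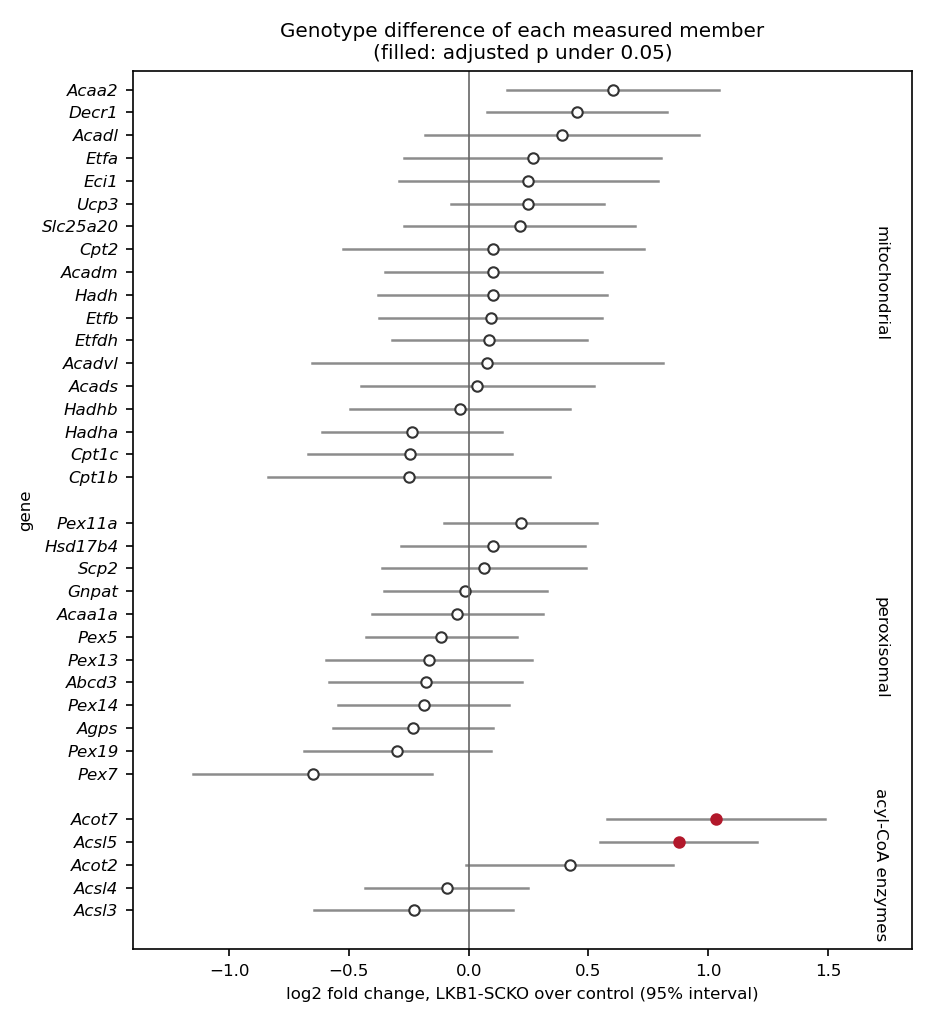
Log2 fold change of each measured member, LKB1-SCKO over control (horizontal axis), with the 95% interval of the limma fit, by class. The filled points, Acot7 and Acsl5, are the members with an adjusted p under 0.05; the intervals of Acaa2, Decr1 and Pex7 also lie on 1 side of 0.

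Acsl5 encodes a long-chain acyl-CoA synthetase of mitochondria and endoplasmic reticulum, which activates fatty acids by joining them to coenzyme A. Its level was 12.03 and 11.92 in LKB1-SCKO pools, against 11.09 and 11.11 in control pools. The pools of each genotype lay close together and the genotypes did not overlap. The difference was a 1.84-fold rise (log2 fold change 0.88, SE 0.129, adjusted p = 0.0336). In the unprocessed table the same probe had signals of 4082 and 3982 in LKB1-SCKO pools, against 2387 and 2405 in control pools. A dimmer probe of Acsl5 stood at 8.80 and 8.59 in LKB1-SCKO pools, against 7.71 and 8.55 in control pools, so that it was higher in both mutant pools by a narrow margin against control 2. Its log2 difference was 0.56, and the remaining 2 probes of the gene were not detected on any array. The call of Acsl5 ended without control 1 (adjusted p = 0.144), control 2 (0.164), LKB1-SCKO 1 (0.0953) or LKB1-SCKO 2 (0.0575), with log2 fold changes of 0.81 to 0.94.

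Acot7 encodes the acyl-CoA thioesterase best known from brain and neurons, which hydrolyses long-chain acyl-CoA back to the free fatty acid. Its brightest probe had 11.08 and 11.15 in LKB1-SCKO pools, against 10.29 and 9.88 in control pools. The genotypes did not overlap, and the control pools differed more from each other than the mutant pools did. Acot7 rose 2.04-fold (log2 fold change 1.03, SE 0.180, adjusted p = 0.0496). The other 3 kept probes of Acot7 separated the genotypes in the same direction, with log2 differences of 0.90, 1.09 and 1.09. The 4 probes read the same RNA and are not independent support. When every kept probe was tested on its own, an alternative chosen after seeing the data and adjusted over 19732 probes, 2 of 72 member probes passed, beside 2.52% of all kept probes. They were the bright probe of Acsl5 (adjusted p = 0.0472) and the Acot7 probe at 0.90 (adjusted p = 0.0431). Leaving out any 1 pool also ended the gene-level call of Acot7 (adjusted p 0.0688 to 0.183), with log2 fold changes of 0.82 to 1.23. Both calls also ended with arrays scaled to the same median (adjusted p = 0.0579 for Acsl5 and 0.0524 for Acot7) and with the authors' processed values (0.0708 and 0.0992).

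Of 11 measured of 12 listed macrophage genes, 2 rose (Cx3cr1 and Laptm5), beside 2.46% of all genes, and 9 stood above 0, beside 51.6% of all genes. Cd163 (-1.25, adjusted p = 0.236) and Mrc1 (-0.48, adjusted p = 0.462) stood below 0. Their summed intensity was 23129 and 18576 in LKB1-SCKO pools, against 10668 and 16007 in control pools. The red cell gene Hba-a1 had 14.64 and 15.56 in LKB1-SCKO pools, against 13.74 and 13.45 in control pools, and did not pass (adjusted p = 0.0761). The part of these cells in the rises of Acsl5 and Acot7 was not tested.

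**Figure D2:**
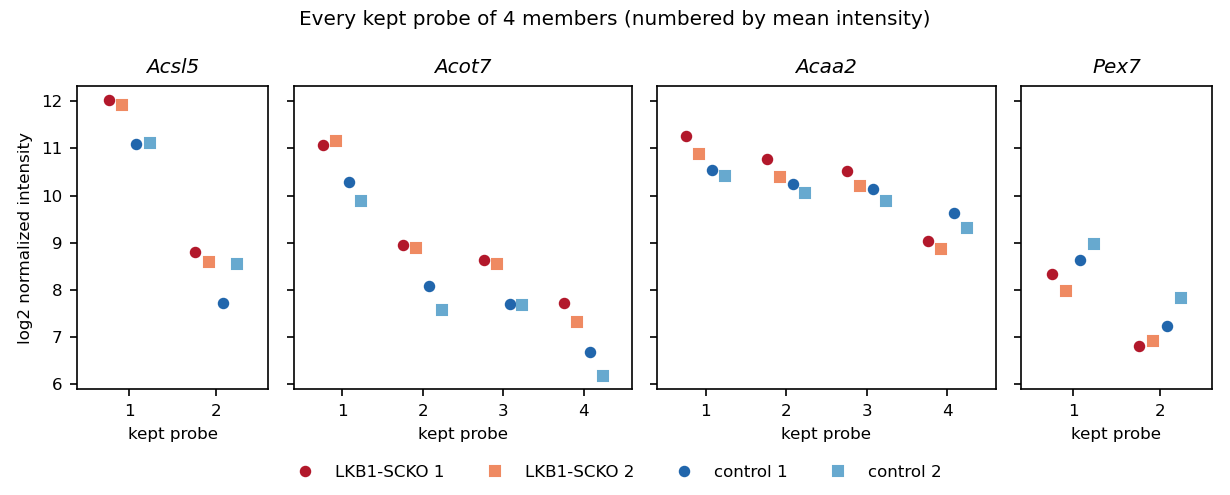
Log2 normalised intensity (vertical axis) of each kept probe of Acsl5, Acot7, Acaa2 and Pex7 in the 2 LKB1-SCKO pools (red and orange) and the 2 control pools (dark and light blue). All 4 Acot7 probes are higher and both Pex7 probes lower in LKB1-SCKO, while the dimmest Acaa2 probe runs opposite to the other 3.

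The promoters of Acsl5 and Acot7 are shown because these were the genes whose transcripts rose. Each run is the 250 bases before the start site that RefSeq gives, from GRCm38.p6, plus strand, 5′ to 3′, with matches to the searched motifs in capitals. The Acsl5 window is chr19:55253119-55253368 and the Acot7 window chr4:152185358-152185607.
Acsl5: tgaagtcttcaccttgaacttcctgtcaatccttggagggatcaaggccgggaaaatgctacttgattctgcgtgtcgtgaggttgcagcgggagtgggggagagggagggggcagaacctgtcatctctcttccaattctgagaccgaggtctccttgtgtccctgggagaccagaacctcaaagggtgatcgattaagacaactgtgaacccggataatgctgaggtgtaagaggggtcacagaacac
Acot7: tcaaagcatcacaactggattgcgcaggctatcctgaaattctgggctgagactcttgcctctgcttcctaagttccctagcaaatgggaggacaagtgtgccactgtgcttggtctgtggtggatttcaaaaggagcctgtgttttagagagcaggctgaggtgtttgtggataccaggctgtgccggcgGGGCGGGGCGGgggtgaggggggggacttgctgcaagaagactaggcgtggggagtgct
The motifs, searched on both strands, were the nuclear receptor site AGGTCA, its direct repeat DR1 (AGGTCA, any base N, AGGTCA, the type of site that PPAR and RXR bind), the cAMP response element TGACGTCA, its core TGACG, the GC box GGGCGG and the TATA box TATAAA. The DR1 repeat contains AGGTCA, and the cAMP response element contains TGACG. The Acot7 window held GC boxes, overlapping each other, that begin 59 and 54 bases before the start site, and none of the other motifs. No searched motif was in the Acsl5 window. Over the 32851 promoters in the table, a window of this length held AGGTCA in 14.0% of cases, DR1 in 0.0335%, the cAMP response element in 1.55%, TGACG in 17.8%, the GC box in 32.7% and the TATA box in 12.4%. The members were counted by gene, over any of its promoters. Among the 33 members with a promoter in the table, the GC box of Acot7 was found in 21, beside 35.4% of all genes. TGACG was found in 10 (19.8% of all genes) and AGGTCA in 6 (15.8%), namely Acadm, Acadvl, Cpt1a, Cpt1c, Scp2 and Ucp3. TGACGTCA was in Pex13 (1.77% of all genes), the TATA box in Pex14 (14.3%) and DR1 in none (0.0407%).

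The remaining acyl-CoA enzymes did not pass. Acot2, the matrix thioesterase of mitochondria, had 7.53 and 7.25 in LKB1-SCKO pools, against 7.09 and 6.84 in control pools (log2 fold change 0.42, SE 0.171, adjusted p = 0.231). The genotypes did not overlap at this probe, whereas a kept probe near background differed by -0.29 with overlapping pools. Acot2 is nearly identical in sequence to Acot1, so its signal may include that of its neighbour, which stood at 0.47 (adjusted p = 0.119, named after its value was seen) on its own probe. Acsl3, a synthetase of endoplasmic reticulum and lipid droplets, had 10.24 and 10.58 in LKB1-SCKO pools, against 10.61 and 10.66 in control pools (log2 fold change -0.23, adjusted p = 0.463). Acsl4, which prefers arachidonic acid, differed by -0.09 (adjusted p = 0.727). The synthetases measured thus gave 1 rise and 2 values below 0 that did not pass.

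No carnitine shuttle gene passed the threshold, and the pools overlapped at the brightest probe of each. Cpt1b, the muscle-type carnitine palmitoyltransferase of the outer mitochondrial membrane, had 9.54 and 9.12 in LKB1-SCKO pools, against 9.82 and 9.34 in control pools (log2 fold change -0.25, SE 0.233, adjusted p = 0.570). Pool 1 exceeded pool 2 in both genotypes. The part of muscle or adipose tissue in the Cpt1b signal was not tested. The second probe of Cpt1b had 7.07 and 6.90 in LKB1-SCKO pools, against 7.58 and 7.31 in control pools, lower in both mutant pools (log2 difference -0.45). Cpt1c, a family member known from the endoplasmic reticulum of neurons, had 5.83 and 6.12 in LKB1-SCKO pools, against 6.10 and 6.33 in control pools (log2 fold change -0.24, adjusted p = 0.444). Cpt2, which re-forms acyl-CoA inside the matrix, differed by 0.10 (SE 0.249, adjusted p = 0.843), and its other kept probes by -0.15 and 0.32. The carnitine carrier gene Slc25a20 differed by 0.21 (SE 0.190, adjusted p = 0.551), with 11.79 and 11.43 in LKB1-SCKO pools, against 11.54 and 11.25 in control pools. A dimmer probe of Slc25a20 had 7.35 and 7.03 in LKB1-SCKO pools, against 6.63 and 6.84 in control pools, higher in both mutant pools (log2 difference 0.46).

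All 4 acyl-CoA dehydrogenases stood above 0 at their brightest probe, and none passed. They catalyse the opening step of each cycle, and differ in the chain length they prefer. The medium-chain gene Acadm had 13.55 and 13.33 in LKB1-SCKO pools, against 13.52 and 13.16 in control pools (log2 fold change 0.10, 95% interval -0.35 to 0.56). The long-chain gene Acadl had 8.90 and 8.49 in LKB1-SCKO pools, against 8.53 and 8.07 in control pools (log2 fold change 0.39, adjusted p = 0.368). The very-long-chain gene Acadvl differed by 0.08 and the short-chain gene Acads by 0.04. Second probes differed by -0.09 for Acadl, 0.07 for Acadvl and 0.59 for Acads, each with overlapping pools. At the brightest probe of all 4 genes the control pools differed from each other by more than the genotypes did, and the genotypes overlapped. Acadm, Acads and Acadvl stood below 0 when control 2 was left out, and so did Acadm and Acadvl without LKB1-SCKO 1.

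Later steps of the cycle held the mitochondrial members with the largest differences. Acaa2, the thiolase that cleaves off acetyl-CoA, had 11.27 and 10.89 in LKB1-SCKO pools, against 10.55 and 10.41 in control pools. The genotypes did not overlap, and the log2 fold change was 0.60 (SE 0.175, unadjusted p = 0.0166 and adjusted p = 0.137 in limma). The probes of Acaa2 disagreed. A pair of them differed by 0.35 and 0.43, while the dimmest had 9.03 and 8.87 in LKB1-SCKO pools, against 9.63 and 9.30 in control pools, a log2 difference of -0.51. The mean over the 4 probes was 0.22.

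Decr1, the dienoyl-CoA reductase needed for fatty acids with double bonds, had 9.632 and 9.515 in LKB1-SCKO pools, against 9.243 and 9.002 in control pools. The pools did not overlap, and the log2 fold change of 0.45 (SE 0.149) had an adjusted p of 0.169. Eci1, the isomerase that also serves unsaturated chains, differed by 0.25 (adjusted p = 0.537). The 2 subunits of the trifunctional protein, Hadha and Hadhb, are encoded by neighbouring genes read in opposite directions. Hadha had 7.67 and 7.66 in LKB1-SCKO pools, against 7.77 and 8.03 in control pools, so that it was lower in both mutant pools (log2 fold change -0.24, adjusted p = 0.406). Hadhb differed by -0.03 (adjusted p = 0.932) with overlapping pools. Hadh, the short-chain hydroxyacyl-CoA dehydrogenase gene, was detected in 1 of 2 control pools and differed by 0.10.

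All 3 electron transfer genes stood above 0 with overlapping pools at their brightest probe, and none passed. Etfa and Etfb encode the subunits of the electron-transferring flavoprotein, and Etfdh its oxidoreductase in the inner membrane. Etfa had 13.63 and 13.38 in LKB1-SCKO pools, against 13.48 and 12.99 in control pools (log2 fold change 0.27, 95% interval -0.27 to 0.80). Etfb and Etfdh differed by 0.09 each (adjusted p = 0.806 and 0.793). The probes of Etfdh disagreed, since the second had 7.03 and 7.13 in LKB1-SCKO pools, against 7.57 and 7.25 in control pools, lower in both mutant pools, and the mean over its probes was -0.12. The other probes of Etfa differed by 0.11 and -0.06 and that of Etfb by 0.07, with overlapping pools. Ucp3, an uncoupling protein gene of muscle and brown fat, had 6.99 and 6.95 in LKB1-SCKO pools, against 6.76 and 6.69 in control pools. Its pools did not overlap, the difference was 0.25 (SE 0.126) and it did not pass (adjusted p = 0.315), while its second probe differed by 0.03.

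Among the mitochondrial genes the pools of the same genotype differed in a shared way. In 15 of the 18 genes (83.3%) pool 1 exceeded pool 2 in LKB1-SCKO and also in control, beside 22.8% of all genes tested. The level was highest in LKB1-SCKO 1 for 12 genes (28.4% of all genes tested) and lowest in control 2 for 12 genes (66.7%, beside 29.4%). The median deviation from each gene's mean was 0.23 and -0.06 in LKB1-SCKO pools, against 0.04 and -0.24 in control pools. Pool numbers come from the labels and mark no shared litter or batch there.

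Adipocyte genes were ordered among the pools in the same way. Of the 9 measured, 8 were higher in pool 1 in both genotypes (22.8% of all genes) and 8 were lowest in control 2 (29.4%). Their median deviation was 0.51 and 0.03 in LKB1-SCKO pools, against 0.34 and -0.77 in control pools. Of 6 listed brown adipocyte genes, Dio2 was detected on no array and Elovl3 in 1 of 2 control pools. Elovl3 had 6.11 and 6.19 in LKB1-SCKO pools, against 5.37 and 4.85 in control pools (log2 fold change 1.04, adjusted p = 0.0629). Ucp1, the uncoupling protein that defines brown fat, had 12.06 and 11.92 in LKB1-SCKO pools, against 11.47 and 11.13 in control pools (log2 fold change 0.69, adjusted p = 0.0978). Cidea had 12.35 and 11.84 in LKB1-SCKO pools, against 12.44 and 11.78 in control pools. The pools overlapped for Cidea (log2 fold change -0.01), Cox7a1 (0.12) and Cox8b (-0.02). Of 5 measured brown adipocyte genes 4 were higher in pool 1 in both genotypes and all 5 were lowest in control 2. Of these 1 was highest in LKB1-SCKO 1, beside 28.4% of all genes. Skeletal muscle genes ran otherwise, with 0 of 13 higher in pool 1 in both genotypes. The part of adipose tissue in the mitochondrial values was not tested.

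**Figure D3:**
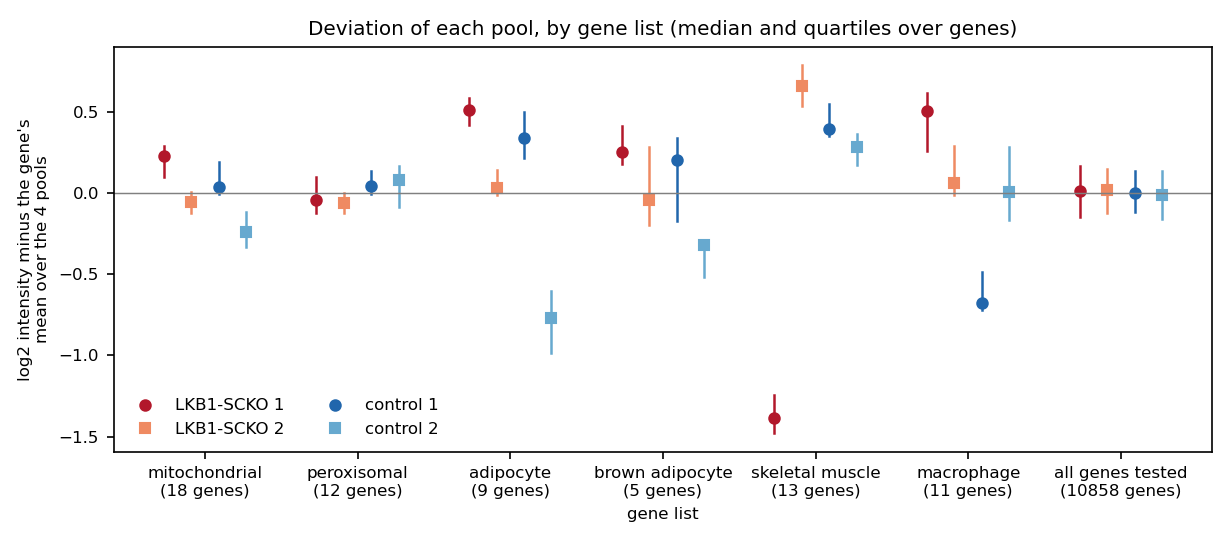
Deviation of each pool from the gene's mean over the 4 pools (log2, vertical axis), as the median (marker) and quartiles (line) over the genes of each list, LKB1-SCKO pools in red and orange, control pools in blue. The mitochondrial and adipocyte medians are highest in LKB1-SCKO 1 and lowest in control 2, the brown adipocyte medians are near each other in LKB1-SCKO 1 (0.25) and control 1 (0.20) and lowest in control 2, whereas the peroxisomal medians lie between -0.06 and 0.08.

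Of the 18 mitochondrial genes, 14 stood above 0 and 4 below, against 51.6% of all genes above 0. The number above 0 was 10 without control 2, 9 without LKB1-SCKO 1, 14 without control 1 and 15 without LKB1-SCKO 2. With arrays scaled to the same median it was 10. The median log2 fold change of 0.10 was 0.28 without control 1, 0.02 without control 2, 0.0009 without LKB1-SCKO 1 and 0.29 without LKB1-SCKO 2. It was smaller than the spread between pools of a genotype (0.20, pooled SD of the list's median).

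**Figure D4:**
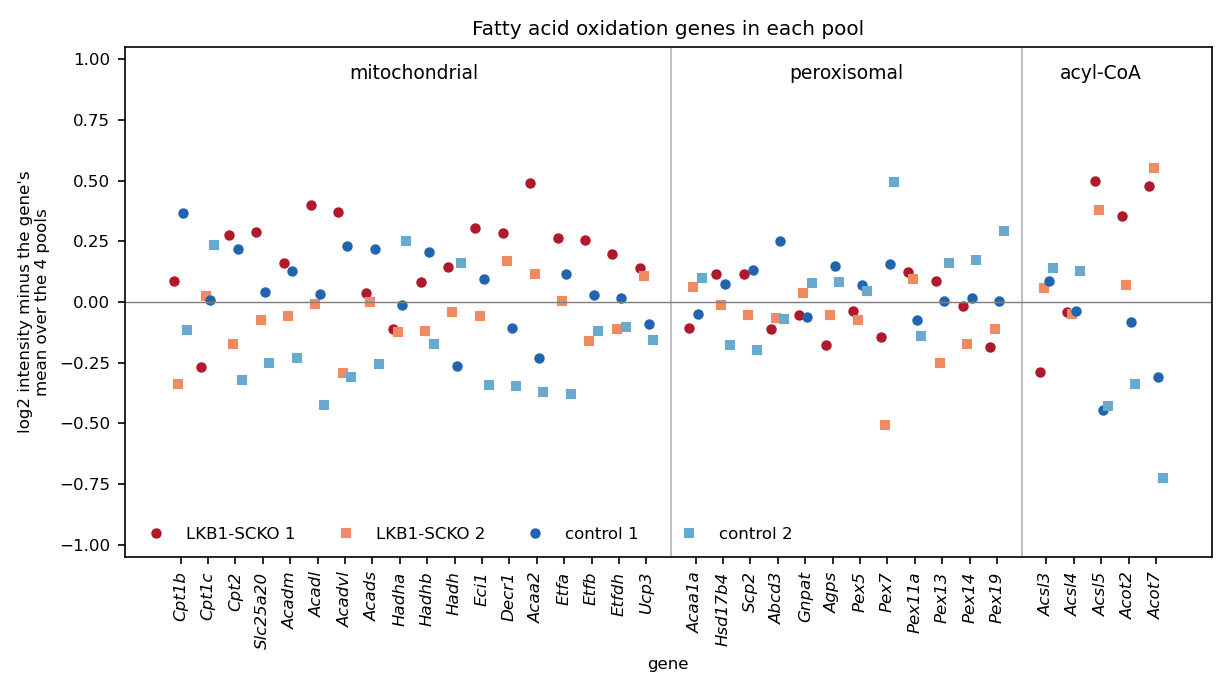
Log2 intensity of each measured member in each pool, minus the gene's mean over the 4 pools (vertical axis), LKB1-SCKO pools in red and orange, control pools in blue. Among mitochondrial genes the pool 1 circles mostly lie above the pool 2 squares of the same genotype, while Acsl5 and Acot7 at the right separate by genotype.

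The peroxisomal members lay close together among the pools. Of the 12 measured, 9 stood below 0 and 3 above, beside 51.6% of all genes above 0. Their median deviation was -0.05 and -0.06 in LKB1-SCKO pools, against 0.04 and 0.08 in control pools, with a pooled SD of the list's median of 0.02 between pools of a genotype. None passed. Pool 1 exceeded pool 2 in both genotypes in 4 of the 12 (33.3%), beside the 22.8% of all genes. The number above 0 was 3 or 4 when any 1 pool was left out and 2 with arrays scaled to the same median. The 30 further peroxisomal genes measured did not share this direction. Of them 15 stood above 0 and 15 below, with a median log2 fold change of 0.02.

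The enzymes of peroxisomal oxidation stood on both sides of 0, and none passed. Acaa1a, a peroxisomal thiolase, had 12.41 and 12.58 in LKB1-SCKO pools, against 12.47 and 12.62 in control pools (log2 fold change -0.05, 95% interval -0.41 to 0.31). Hsd17b4, the multifunctional enzyme of the middle steps, differed by 0.10 (95% interval -0.28 to 0.49) and Scp2, a thiolase and sterol carrier, by 0.06 (95% interval -0.36 to 0.49). Abcd3, which carries fatty acids across the peroxisomal membrane, had 11.79 and 11.84 in LKB1-SCKO pools, against 12.16 and 11.84 in control pools (log2 fold change -0.18, adjusted p = 0.547). At their brightest probe all 4 had overlapping pools. A dimmer probe of Abcd3 was lower (-0.28) and one of Scp2 higher (0.28) in both mutant pools, while the remaining probes of Abcd3 (-0.20 and 0.18) and of Scp2 (-0.01) overlapped.

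The ether lipid genes act in sequence at the start of plasmalogen synthesis. Gnpat, the acyltransferase, differed by -0.01 (adjusted p = 0.964). Agps, the alkyl-transfer enzyme, had 10.79 and 10.92 in LKB1-SCKO pools, against 11.12 and 11.05 in control pools, lower in both mutant pools (log2 fold change -0.23, SE 0.131, adjusted p = 0.359). Its other kept probes differed by -0.36 and -0.59, and both were lower in each mutant pool than in either control pool.

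Peroxins build the organelle and import its enzymes, and 5 of the 6 among the members stood below 0. Pex7, the receptor that imports enzymes with the type 2 targeting signal, Agps and peroxisomal thiolase among them, had the lowest log2 fold change of all measured members. Its level was 8.33 and 7.97 in LKB1-SCKO pools, against 8.64 and 8.97 in control pools. The pools did not overlap, and the log2 fold change of -0.65 (SE 0.197) had an unadjusted p of 0.0195 and an adjusted p of 0.146 in limma. The second probe of Pex7 had 6.79 and 6.90 in LKB1-SCKO pools, against 7.23 and 7.83 in control pools, a log2 difference of -0.68.

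Pex19, which brings membrane proteins to the peroxisome, had 11.02 and 11.09 in LKB1-SCKO pools, against 11.21 and 11.50 in control pools (log2 fold change -0.30, adjusted p = 0.321). Its second probe differed by -0.56 with overlapping pools. Pex14 and Pex13, the docking proteins of the import pore, differed by -0.19 and -0.17 (adjusted p = 0.481 and 0.609), and Pex5, the receptor for the type 1 signal, by -0.11 (adjusted p = 0.633). The second kept probe of Pex13 differed by -0.37 and was lower in both mutant pools, and the other kept probes of Pex5 differed by -0.05 and -0.15. Pex11a, which promotes elongation and division of peroxisomes, was the peroxin above 0 among the members. It had 9.64 and 9.61 in LKB1-SCKO pools, against 9.44 and 9.37 in control pools (log2 fold change 0.22, adjusted p = 0.372). Its other 3 probes differed by 0.39, 0.38 and 0.05. At the brightest probe, pools separated the genotypes for 5 of the 6 member peroxins, with 4 lower and 1 higher in LKB1-SCKO. Of all genes, 25.8% were lower and 29.3% higher. Peroxins outside the members, named after their values were seen, stood on both sides of 0. Pex11g (0.40), Pex10 (0.36), Pex26 (0.23), Pex2 (0.12) and Pex16 (0.11) were higher in both mutant pools. Pex3 (-0.29) was lower in both, and the pools of Pex6 (-0.05) overlapped. None of these passed.

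Other genes of the pathway were listed by role, and 91 of them besides the members and Stk11 were measured. Of these 1 rose, 2 fell and 88 did not pass, a share near the 3.79% of all genes tested, with a median log2 fold change of 0.05. Bdh1, the mitochondrial enzyme that interconverts the ketone bodies acetoacetate and beta-hydroxybutyrate, had 7.76 and 8.26 in LKB1-SCKO pools, against 6.67 and 6.49 in control pools. It rose 2.69-fold (log2 fold change 1.43, SE 0.206, adjusted p = 0.0325). Etfbkmt, a methyltransferase that acts on the beta subunit of the electron-transferring flavoprotein, had 6.25 and 6.07 in LKB1-SCKO pools, against 6.97 and 7.18 in control pools. It fell by 0.92 on the log2 scale (SE 0.151, adjusted p = 0.0433). Rxrg, a retinoid X receptor gene whose family partners PPARs, had 7.07 and 7.42 in LKB1-SCKO pools, against 8.69 and 8.38 in control pools. It fell by 1.29 on the log2 scale (SE 0.190, adjusted p = 0.0330). The call of Etfbkmt ended whichever pool was left out (adjusted p 0.0791 to 0.198). Etfbkmt also lost it without background correction (log2 fold change -0.40, adjusted p = 0.0657) and when its kept probes were averaged (-0.61, adjusted p = 0.110). The same held with cyclic loess (adjusted p = 0.0506), median scaling (0.0541), no detection filter (0.0582) or the authors' processed values (0.0789). Bdh1 lost the call without control 1 (adjusted p = 0.0893) or control 2 (0.131) and with the authors' processed values (0.0747), and stood at 0.79 without background correction. Rxrg lost it without control 1 (adjusted p = 0.119), control 2 (0.0782) or LKB1-SCKO 1 (0.0772) and with the authors' processed values (0.0789), and stood at -0.83 without background correction.

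Lists with no member past the threshold are given by the 2 genes of smallest p. Among 21 acyl-CoA and uptake genes, the thioesterase gene Acot11 stood at 0.76 (SE 0.139, adjusted p = 0.0544) and the synthetase gene Acsbg1 at -0.64 (adjusted p = 0.0680). Acot11 had 10.66 and 10.46 in LKB1-SCKO pools, against 9.80 and 9.80 in control pools. Among 30 further peroxisomal genes, the isomerase gene Eci2 stood at -0.45 (adjusted p = 0.140) and the transporter gene Abcd2 at 0.70 (adjusted p = 0.202). The other regulators measured did not pass. Ppargc1a, the coactivator of mitochondrial genes, stood at 0.40, Ppard at -0.15 and Esrra at 0.05, named after their values were seen. Of the same list, and also named after their values were seen, Pparg (0.63) and Angptl4 (0.47) were higher in both mutant pools. Pdk4 (-0.58), named in the same way, was lower in both. Plin2, a lipid droplet coat gene also named after its values were seen, had 8.40 and 8.30 in LKB1-SCKO pools, against 7.72 and 7.50 in control pools (log2 fold change 0.74, adjusted p = 0.0630). Acacb, likewise named after its values were seen, the mitochondrial acetyl-CoA carboxylase that makes malonyl-CoA, stood at 0.38 with higher values in both mutant pools (adjusted p = 0.352).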

How the data were processed

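Illumina MouseWG-6 arrays measured total RNA of 4 pools of sciatic nerve. The deposited table gives an unnormalised signal intensity and a detection p-value per probe for each array, made in GenomeStudio 2010 per the submitters' processing notes. The authors' processed values, an intensity of unstated normalisation with a median of 13.57 to 13.59 and a lowest value of -53.13, were used as an alternative. Each of 45281 probes took its gene from the platform annotation: 34885 had 1 symbol, 18 several and 10378 none. Of the probes with 1 symbol, 34807 matched RefSeq (GRCm38.p6) by gene identifier. Background was corrected in limma 3.58.1 (R 4.3.3) by normexp with negative controls inferred from the detection p-values (offset 16). The intensity was then quantile normalised and, after that, taken to log2. A probe was kept at a detection p-value under 0.05 on both arrays of a genotype, and the brightest kept probe stood for a gene. LKB1-SCKO was compared with control by lmFit and eBayes. Probe levels were ranked to choose a gene's probe, and intensities were added over the genes of a list, where bright probes weigh most. The number of arrays limits the precision, and residual variance rests on 2 degrees of freedom per gene with 3.29 added from all genes.

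All measured members are named. Of other pathway lists, genes past the threshold are named, or, where a list has none, the 2 with the smallest p, and Stk11 as the target; genes named besides these are marked in the text as named after their values were seen. The members and lists were chosen with earlier results of these data known. The labels do not say whether pool numbers mark pairs, and the numbers were not used as pairs in the main test. Deviations of same-numbered pools from their group means correlated at -0.172 across genes, which cannot decide this with 2 pools per genotype. The test was tried on simulated data first. Alternatives in background correction, scaling, probe filter, probe choice, source table, array weights, replicate block and left-out pools are given at the end.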

Additional observations from a re-analysis of the deposited data

How the results depend on the processing

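Of 524 values of members under alternative settings, 478 kept their direction and side of the threshold, 19 lost the call (all of Acsl5 or Acot7) and 27 changed sign, in 14 genes whose log2 fold change was at most 0.165 in size. The count of members past the threshold was 2 without background correction, with an offset of 50, with cyclic loess and with the stricter detection filter. It was 1 with no detection filter, with the mean over probes and with array weights, and 0 with median scaling, with the authors' processed values and without any 1 pool (range 0 to 0). Over all settings Acsl5 had an adjusted p of 0.00848 to 0.164 and Acot7 one of 0.0207 to 0.183. Genes past the threshold numbered 635 without background correction, 157 with the authors' values and 117 to 431 without 1 pool. With the replicate block, members past the threshold fell to 0 and genes to 172; Acsl5 then had an adjusted p of 0.104 and Acot7 one of 0.106, and Bdh1 (0.0813), Rxrg (0.0946), Etfbkmt (0.112) and Stk11 (0.109) lost the call. With the numbers crossed, a choice made after seeing the data, 0 members and 349 genes passed.

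The peroxisomal median of -0.14 was -0.1061 without background correction, -0.2284 with median scaling, -0.1138 with no detection filter, -0.1117 with the mean over probes and -0.1443 to -0.1024 without 1 pool. The acyl-CoA median of 0.42 was 0.2231 without background correction, 0.06734 with the mean over probes and 0.2811 to 0.5645 without 1 pool. The mitochondrial median stayed above 0, from 0.000863 to 0.2855. Median scaling put Acads at -0.05472, Acadvl at -0.03872, Etfb at -0.01737, Etfdh at -0.007512 and Scp2 at -0.0224, and moved the median of all genes to -0.07. The mean over probes put Acsl4 at 0.004437 and Etfdh at -0.1226. Leaving out 1 pool gave log2 fold changes of -0.1318 to 0.03813 for Acaa1a, -0.06954 to 0.2818 for Acadm, -0.2009 to 0.2746 for Acads, -0.2548 to 0.4058 for Acadvl, -0.1639 to 0.3705 for Cpt2, -0.1179 to 0.3018 for Etfb, -0.07205 to 0.2377 for Etfdh. It gave -0.08443 to 0.05582 for Gnpat, -0.1121 to 0.3041 for Hadh, -0.2255 to 0.1591 for Hadhb, -0.02451 to 0.2305 for Hsd17b4, -0.3384 to 0.004585 for Pex13, -0.09743 to 0.2287 for Scp2. Among members that kept their sign, it gave 0.02007 to 0.5126 for Etfa, 0.02836 to 0.459 for Eci1 and 0.03328 to 0.4043 for Slc25a20. For Acadl it gave 0.1629 to 0.6141, and for Cpt1b -0.4872 to -0.01275. The causes were not tested. The slide block was not run, as no slide label was used here, and the 2 pools per genotype limit every value.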
